A study of Mus musculus with 4 samples.

Results

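Y-box proteins are RNA-packaging proteins built around a cold-shock domain, and the mouse genome encodes 3 of them, by the genes Ybx1, Ybx2 and Ybx3. The IGF2BP3 eCLIP-seq clusters of these 3 mRNAs were collected from adult mouse testes. A cluster is a stretch of genome in which reads pile up, and it was assigned to a gene when its centre lay inside the gene on the gene's own strand. By this rule 111 of 337234 clusters of replicate 1 and 109 of 216354 clusters of replicate 2 belonged to the 3 genes. Each replicate holds an IGF2BP3 immunoprecipitation (IP) and a size-matched input (SMInput), the same crosslinked and fragmented lysate without the antibody. All 4 libraries came from testes of wild type C57BL/6 males, 8 weeks old, with germ cells and somatic cells together, so that a value cannot be assigned to a cell type. There was no library with a control antibody among those analysed here.

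Y-box proteins coat mRNAs, keep many of them from being translated and protect them from decay. YBX1 is found in most cells. YBX2, also called MSY2, is specific to germ cells, where it stores mRNAs of meiotic cells and spermatids, and male mice without it are sterile. YBX3, also called MSY4, is abundant in the testis as well. IGF2BP3 is itself an mRNA-binding protein that acts on the stability and translation of its targets, so the question was where on the Y-box mRNAs the IP reads stood above the input.

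In all 3 mRNAs the highest ratios of IP to SMInput reads lay in the last exon, which carries nearly the whole 3′UTR, while the median of the clusters in coding sequence (CDS) was close to input. The 3 genes have the same layout at their 3′ ends in the GENCODE M21 annotation. The stop codon lies in the next-to-last exon, followed by 31 bases of 3′UTR in Ybx1, 34 in Ybx2 and 33 in Ybx3, and an intron then separates these from a last exon of 387, 380 and 551 bases. Ybx1 and Ybx2 each held 1 site in this exon that was significant in both replicates. Ybx3 held a site that was significant in replicate 2 and lay above input, but below the fold change threshold, in replicate 1.

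For a cluster to be called significant, its log2(fold change) of IP over SMInput and its −log10(P value) both had to reach 2. Replicate 1 had 6 significant clusters among 111, with 2 in Ybx1, 4 in Ybx2 and 0 in Ybx3, or 5.41%. The share over all clusters of that replicate was 4.92%. Replicate 2 had 8 among 109, with 3 in Ybx1, 2 in Ybx2 and 3 in Ybx3, or 7.34% against 13.2% over all clusters. By number, the Y-box mRNAs therefore stood near the background in replicate 1 and below it in replicate 2. Their clusters rested on many reads. Where read numbers could be recovered from the tables, the median was 91 IP and 89 SMInput reads in replicate 1 and 69 and 159 in replicate 2, whereas the medians over all clusters were 4 and 2 in replicate 1 and 4 and 6 in replicate 2.

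The picture changed with the fold change threshold. When the log2(fold change) needed only to reach 1, 23 of 111 were called in replicate 1 (20.7%), beside 7.24% of all clusters, and 22 of 109 in replicate 2 (20.2%), beside 18.4%. With both thresholds at 3, 1 cluster was left in replicate 1, beside 1.18% of all clusters, and 2 in replicate 2, beside 2.42%, all of them in Ybx1. A Benjamini-Hochberg adjusted P value below 0.05 over all clusters of a table, in place of the P value threshold and with the fold change threshold kept at 2, called the same numbers as the main thresholds, 6 and 8, beside 3.24% and 10.4%. With a minimum of 10 recovered IP reads, 6 of 77 Y-box clusters were significant in replicate 1 (7.79%), beside 24.8% of all clusters with as many reads, and 7 of 85 in replicate 2 (8.24%), beside 27.4%. Reads were recovered only for a −log10(P value) above 0 and below 400, so this minimum selects by the ratio as well as by reads. The clusters it drops because they are listed at 0 numbered 33 of 111 for the Y-box genes and 35791 of 337234 overall in replicate 1, and 23 of 109 and 16261 of 216354 in replicate 2, and nothing is read from these shares.

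At the main thresholds, all significant clusters of the 3 genes lay in 3′UTRs. In replicate 1, 6 of 24 3′UTR clusters were significant (25%), beside 19.4% of all 3′UTR clusters, and 0 of 74 CDS clusters, beside 5.27% of all CDS clusters. In replicate 2 these were 8 of 29 in 3′UTRs (27.6%), beside 34.4%, and 0 of 68 in CDS, beside 7.95%. This did not hold where the log2(fold change) needed only to reach 1, a comparison added after seeing the data. There, 15 of 24 3′UTR clusters were called in replicate 1, beside 27.2% of all 3′UTR clusters. So were 6 of 74 CDS clusters, beside 9.78% of all CDS clusters, and 2 of 9 intron clusters, both in Ybx1. In replicate 2 the called clusters were 20 of 29 in 3′UTRs, beside 47.4%, 2 of 68 in CDS, beside 16.1%, and 0 of 7 in introns. The share over all intron clusters at this threshold was not computed, so nothing is read from the intron counts. The median log2(fold change) of the CDS clusters was 0.19 in replicate 1 and 0.23 in replicate 2, lower than the 0.76 and 0.93 over all CDS clusters. The 3′UTR clusters had medians of 1.39 and 1.55, also below the 1.76 and 1.85 over all 3′UTR clusters. The sets differed in depth where reads were recovered. Y-box 3′UTR clusters had medians of 149 IP and 112.5 SMInput reads in replicate 1 and 116 and 198 in replicate 2. Over all 3′UTR clusters these were 8 and 4, and 8 and 8. In CDS the median IP reads were 74.5 and 56, beside 7 and 7 over all CDS clusters. The part of depth in these differences was not tested. At the level of genes, 40.8% of the protein-coding genes with clusters in replicate 1 and 62.8% of those in replicate 2 had a significant one, and 39.1% of the 12312 protein-coding genes with clusters in both replicates did so in each, among them Ybx1 and Ybx2 but not Ybx3.

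Ybx1, the broadly expressed member, lies on the minus strand at chr4:119277981-119294604 (mm10, as all coordinates here), and its mRNA has 8 exons and 1628 bases. Its site significant in both replicates spanned chr4:119278165-119278242 in exon 8, from 157 to 234 bases after the stop codon. In replicate 1 it consisted of 2 touching clusters. The cluster with the most IP reads had 109 IP and 29 SMInput reads, a log2(fold change) of 2.67 (95% interval 2.07 to 3.32) and a −log10(P value) of 23.3. The other, 11 bases wide, had 66 and 12 reads and a log2(fold change) of 3.22 (2.32 to 4.25). In replicate 2 the same stretch was split at another base, into a cluster with 99 IP and 40 SMInput reads, log2(fold change) 3.16 (2.61 to 3.72) and −log10(P value) 44.1, and a cluster with 85 and 47 reads and log2(fold change) 2.703 (2.17 to 3.25). The intervals of the 2 replicates overlapped. These intervals are exact Clopper-Pearson intervals of the share of IP reads turned into ratios; they cover counting error only, and neighbouring clusters share reads.

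The site on Ybx1 had a sharp 5′ edge. The next cluster toward the stop codon, at chr4:119278243-119278314, fell to a log2(fold change) of 0.73 (0.35 to 1.10, 118 IP and 121 SMInput reads) in replicate 1. In replicate 2 the neighbour at chr4:119278246-119278290 had 0.98 (0.59 to 1.36, 90 and 164 reads). The clusters ahead of the edge thus held about as many IP reads as the largest ones of the site, but more SMInput reads. A further cluster of 18 bases at chr4:119278098-119278115, nearer the 3′ end, was significant in replicate 2 with 25 IP and 9 SMInput reads and a log2(fold change) of 3.32 (2.17 to 4.61). Replicate 1 listed no cluster in this place.

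Upstream of exon 8, no cluster in an exon of the basic Ybx1 transcripts, the representative subset of GENCODE M21 used for all regions here, reached a log2(fold change) of 1. In replicate 1 the log2(fold change) of the 5 clusters of exon 1 ranged from -1.15 to -0.36, and in replicate 2 that of the 4 clusters there ranged from -0.49 to 0.17. The highest coding values were in exon 5, with 0.75 in replicate 1 and 0.93 in replicate 2. Of the 15 and 17 CDS clusters, 10 and 5 were listed with a −log10(P value) of 0, and all of these had a log2(fold change) below 0. Outside these exons, a pair of touching clusters in replicate 1 at chr4:119281424-119281459, in an intron by the basic transcripts but in a non-coding exon when all annotated transcripts are used, came closest to the threshold, with log2(fold change) values of 1.70 and 1.76 and 21 and 20 IP reads, and replicate 2 listed no cluster there.

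Ybx2, the germ cell member, lies on the plus strand at chr11:69935796-69941605 and its mRNA has 9 exons and 1673 bases. Its site in exon 9, at chr11:69941292-69941398, was 107 bases wide and lay from 101 to 207 bases after the stop codon. The 4 clusters of replicate 1 ran across it with log2(fold change) values of 2.19 (1.78 to 2.61), 2.75 (2.20 to 3.34), 2.64 and 2.41 (1.95 to 2.89). The one with the most IP reads, at chr11:69941344-69941358, had 220 IP and 60 SMInput reads, an interval of 2.22 to 3.07 and a −log10(P value) of 45.7. Of all clusters of that replicate, 0.103% had a −log10(P value) as high. This rank depends on reads as well as on the ratio, and the median over all clusters was 4 IP reads. For the highest value of Ybx3, which had no significant cluster in that replicate, the share was 0.208%. Replicate 2 had a cluster at chr11:69941297-69941332 with 158 and 121 reads and a log2(fold change) of 2.23 (1.88 to 2.59), and one at chr11:69941333-69941397 with 2.74. The latter was listed at a −log10(P value) of 400, the highest value in the tables, which 327 clusters of replicate 2 shared, and its reads could not be recovered. In both replicates the ratio was lower at the 5′ end of the site than in the rest of it. The interval of the cluster at the 5′ end reached below 2 in both replicates. So did that of the cluster at the 3′ end in replicate 1. For these clusters, counting error alone leaves the side of the threshold undecided.

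Ybx2 rose more gradually than Ybx1. Past the stop codon, the end of exon 8 had log2(fold change) values of 0.83 and 1.22 in replicate 1 and 1.01 in replicate 2. The first bases of exon 9 had 1.46 and 1.44, and the next clusters 1.44 (202 IP and 126 SMInput reads) and 1.75 (221 and 237 reads). Toward the 3′ end, a cluster ending 25 bases before the end of the mRNA in replicate 1 had 287 and 194 reads and a log2(fold change) of 1.33 (1.06 to 1.60). Its counterpart in replicate 2 had 276 and 292 reads and 1.77 (1.52 to 2.01). All of these passed the P value threshold, and none passed that of the fold change.

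The coding sequence of Ybx2 was uneven. Exon 4 reached a log2(fold change) of 1.95 (1.44 to 2.47, 109 IP and 48 SMInput reads) in replicate 1 and 1.36 (0.96 to 1.76, 90 and 126 reads) in replicate 2, over the same 7 bases at chr11:69939321-69939327. In exon 5 the highest values were 1.41 and 0.98. Exon 1 had medians of 0.62 and 0.32. The highest value of exon 4 in replicate 1 was the coding cluster of the 3 genes closest to the threshold. Exon 7, just ahead of the exon with the stop codon, had medians below input, -0.38 and -0.42.

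Ybx3 lies on the minus strand at chr6:131364855-131388476 and its mRNA has 10 exons and 1853 bases. Its site of replicate 2 was at chr6:131364978-131365051 in exon 10, from 388 to 461 bases after the stop codon, and thus farther from the stop codon than those of Ybx1 and Ybx2. Measured from the other end, the 3 sites ended 184, 207 and 123 bases before the 3′ end of the Ybx1, Ybx2 and Ybx3 mRNAs. Its 3 clusters had 269, 271 and 215 IP reads against 220, 215 and 165 SMInput reads. Their log2(fold change) values were 2.14 (1.88 to 2.40), 2.18 (1.92 to 2.45) and 2.23 (1.93 to 2.53), with −log10(P value) up to 72.7.

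Replicate 1 had its highest value of the Ybx3 mRNA, 1.66, in the same stretch, without reaching the threshold. The 3 clusters between chr6:131364982-131365048 had log2(fold change) values of 1.54 (1.23 to 1.86), 1.66 (1.34 to 1.98) and 1.65 (1.30 to 2.01), with 227, 238 and 191 IP reads. Their −log10(P value) lay between 22.1 and 27.5, far past the threshold for P. For the last 2 of the 3 the intervals of the replicates overlapped, and for the first they missed each other narrowly. All 3 intervals of replicate 2 reached below 2, so counting error alone leaves their side of the threshold undecided.

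The rest of exon 10 was also above input, from 0.68 to 1.56 in replicate 1 and from 0.75 to 1.90 in replicate 2. The CDS clusters of Ybx3 had medians of 0.30 and 0.28. In replicate 1 the highest coding values were in exon 4, up to 1.16 (0.55 to 1.78), where replicate 2 reached 0.43. Exon 9, with the stop codon, had medians of -0.58 and -0.19.

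Across each mRNA the replicates ran in parallel. Over pairs of overlapping clusters, Pearson's r of the log2(fold change) was 0.93 for Ybx1 (39 pairs), 0.94 for Ybx2 (45 pairs) and 0.82 for Ybx3 (76 pairs), given as a description, since neighbouring clusters share reads and libraries. Replicate 2 was higher in 32 of the 39 pairs of Ybx1 and 52 of the 76 of Ybx3, but in 21 of the 45 of Ybx2. The median of the 3′UTR clusters minus that of the CDS clusters was 0.58 and 0.66 for Ybx1, 1.18 and 1.51 for Ybx2 and 0.98 and 1.33 for Ybx3. The medians of this difference over 2660 protein-coding genes with enough clusters in both regions were 0.83 and 0.90. Ybx1 was thus below the typical gene in both replicates, with 64.0% and 63.2% of genes higher. Ybx2 and Ybx3 were above it, with 30.7% and 20.2% of genes higher than Ybx2 and 41.8% and 27.9% higher than Ybx3.

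Among those 2660 genes, likeness was measured as the Euclidean distance over 4 values, the median log2(fold change) of the clusters in CDS and in 3′UTR in each replicate. The nearest to Ybx1 were Tiam1 (distance 0.13), Mif4gd (0.24) and Gm28043 (0.25). The nearest to Ybx2 were Fbxl19 (0.15), Sptbn1 (0.20) and Erlin1 (0.21), and those to Ybx3 were Axl (0.10), Nectin2 (0.14) and Ep400 (0.16). Ybx2 and Ybx3 were close to each other (0.24), Ybx3 being the 8th nearest to Ybx2 and Ybx2 the 9th nearest to Ybx3, whereas Ybx1 was at larger distances from Ybx2 (1.33) and Ybx3 (1.11). From Ybx1, Ybx3 ranked 329th and Ybx2 514th, and Ybx1 itself ranked 1320th from Ybx2 and 958th from Ybx3.

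The sequence at the middle of each site is given as read from the GRCm38 (mm10) genome, 30 bases 5′ to 3′ on the strand of the mRNA, to show the bases at the centre of each site, which are not always those with its highest ratio. Capitals mark runs of at least 4 T, a feature picked after these sequences had been read. The windows are chr4:119278189-119278218 on the minus strand, chr11:69941330-69941359 on the plus strand and chr6:131365000-131365029 on the minus strand.
Ybx1: tattaTTTTTacctaaagatgtctcTTTTT
Ybx2: aaagcaccagcctttggcTTTTTTctcttt
Ybx3: gttgttcaTTTTggatgctggtgctaaact
Each of the 3 holds such a run, as do 23.1% of the 30-base windows at the 2446 sites in 3′UTRs that were significant in both replicates. In windows of 100 bases the share of T was 39% for Ybx1, 32% for Ybx2 and 41% for Ybx3, beside a median of 32% over the same 3′UTR sites, and the GC content was 28%, 49% and 31%, beside a median of 45%. A share of T of at least that of the member was found in 20.6% of these windows for Ybx1, 55.1% for Ybx2 and 14.0% for Ybx3.

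Sequence motifs were searched in the 100-base windows on the strand of the mRNA only. The motifs were GAACA and, like it connected with m6A by the study, AAACC; the commonest form of the m6A consensus, which is GGACT; and, as a stand-in for CA-rich elements, CACACA. No motif contains another, and none of the 4 was found at any of the 3 sites. Over the 2446 sites in 3′UTRs that were significant in both replicates, GAACA was in 7.28% of the windows and AAACC in 8.87%. The consensus GGACT was in 10.8% and the CA-rich CACACA in 4.66%, so most of these sites lack each of them. Over all 3896 sites significant in both replicates, in any region, the shares were 7.73%, 9.29%, 9.73% and 4.11% in the same order. The result describes these letters in these windows and nothing more.

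Near-identical copies matter for Y-box genes, since Ybx1 has processed pseudogenes. With the whole mRNA as query, Ybx1 had alignments of at least 100 bases at 90% identity or more in 10 other places of the genome, with up to 97.5% identity and up to 1529 bases in 1 match; the annotated pseudogene Ybx1-ps2 on chromosome 6 is among them. The 100 bases around the Ybx1 site, searched alone, matched 8 other places, with identities up to 99.0%; 1 of these, on chromosome 1, is not among the 10. For Ybx2 there was 1 copy, at chr13:98245101-98245466 on the plus strand, with 97.5% identity over 367 aligned bases, and it covers the site of exon 9 (98.0%). Ybx3 had no copy at these settings. The 10 copies of Ybx1 contained 0 clusters in replicate 1 and 1 in replicate 2, which was not significant, the 8 matches of its site contained 0 in both, and the copy of Ybx2 contained 0 in both. The study's methods refer to the ENCODE protocol for eCLIP reads. They do not themselves say how reads that align equally well to several places were handled. The part of the copies in the ratios of Ybx1 and Ybx2 was not tested. No cluster lay on the opposite strand of any of the 3 genes.

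Of other mRNAs of cold-shock domain proteins, 4 are described, and all were covered by far fewer reads than the Y-box mRNAs, with at most 12 IP reads in a cluster. Lin28a, which blocks let-7 maturation, had 0 of 8 significant clusters in replicate 1 and 3 of 6 in replicate 2, all in the 3′UTR. Carhsp1 had 1 significant cluster in each replicate, in the 3′UTR in replicate 1 and in an intron in replicate 2, Csdc2 had 1 of 3 and 0 of 1, and Lin28b, the relative of Lin28a, had 0 of 19 and 0 of 11. In sum the 4 genes had 2 of 45 significant clusters (4.44%) and 4 of 28 (14.3%), near the 4.92% and 13.2% over all clusters.

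YBX1 protein is known to join IGF2BP1, SYNCRIP, HNRNPU and DHX9 in a complex that stabilizes certain mRNAs through an element in their coding region. The mRNAs of these 4 partners had 6 of 187 significant clusters in replicate 1 (3.21%) and 8 of 138 in replicate 2 (5.80%), both below the share over all clusters. Igf2bp1 had 2 of 26 and 4 of 17, all in its 3′UTR, on at most 9 IP reads. Hnrnpu was covered about as deeply as the Y-box mRNAs, with up to 168 and 164 IP reads. It had medians of 0.13 and 0.06 in CDS and 0.82 and 1.16 in 3′UTR. Of its clusters, 1 was significant in each replicate, in the 3′UTR in replicate 2 but outside the basic transcripts in replicate 1. Syncrip had 0 of 53 and 2 of 32, and Dhx9 3 of 61 and 1 of 45.

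The tissue label was checked by the presence of clusters on marker mRNAs. All 5 germ cell markers had clusters in both replicates, and Ddx4, Dazl and Acrv1 had significant ones, up to 14 of 24 and 10 of 20 clusters for Dazl. The spermatid mRNAs Prm1 and Tnp1 had none, at log2(fold change) values of at most 1.65 and 1.93 in the 2 replicates. Together the 5 germ cell markers had 30 of 130 significant clusters in replicate 1 (23.1%) and 20 of 120 in replicate 2 (16.7%). The shares over all clusters were 4.92% and 13.2%. The Sertoli cell markers Sox9, Amh and Clu and the Leydig cell markers Cyp11a1, Hsd3b1 and Insl3 had clusters as well. Significant ones were in Hsd3b1 in replicate 1 and in Cyp11a1 and Insl3 in replicate 2. In sum, 0 of 35 and 0 of 44 clusters of the Sertoli cell markers were significant. For the Leydig cell markers these were 1 of 31 and 4 of 29. Clusters were thus present on marker mRNAs of germ cells and of somatic cells. Markers of other tissues were not examined, so the presence of clusters does not single out the testis.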

How the data were processed

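The authors trimmed the reads with cutadapt, removed rRNA reads with Bowtie2, aligned the rest to mm10 with STAR, removed PCR duplicates by UMI and called clusters with Clipper in each replicate separately. Each deposited table gives, per cluster, the log2 ratio of IP to SMInput reads, scaled to library totals, and the −log10 of its P value (chi-square or Fisher's exact test, as deposited). The thresholds are those of the study's methods.

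Gene members and lists were chosen with earlier results of these data known. An item of the lists is not reported here. Reads were recovered where a single pair of whole numbers returned both the ratio and, within 0.0001, the −log10(P value). This held for 99.9% of the 301288 clusters of replicate 1 with a −log10(P value) between 0 and 400 and for 99.7% of 199766 in replicate 2. The totals this gave were 5133438 IP and 8706391 SMInput reads in replicate 1, and 4637612 and 16696122 in replicate 2. Clusters listed at 0 or 400 have no recovered reads. Regions followed basic GENCODE M21 transcripts, and a centre in several regions counted first as 3′UTR, then as CDS. Sites were significant clusters that overlapped between replicates by at least 1 base, touching ones joined; for Ybx3 the joined clusters of replicate 2 were used. Likeness needed at least 3 clusters in CDS and 3 in 3′UTR per replicate. The text names the members, the other genes of both lists, the 3 nearest genes per member, and of the clusters the significant ones with the most IP reads, sites shared by both replicates and neighbours of the threshold; exon values and other clusters were picked after they had been seen. With 2 replicates, which the study describes as biological, no test between samples was made. bedtools 2.31.1, BLAST+ 2.17.0, SciPy 1.17.1 and pandas 2.3.3 were used.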

Additional observations from a re-analysis of the deposited data

How the results depend on the processing

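No paired analysis was possible because each deposited value already compares an IP with the SMInput of its own replicate. With both thresholds at 3, Ybx1 had 1 significant cluster in replicate 1 and 2 in replicate 2, Ybx2 had 0 and 0 and Ybx3 had 0 in replicate 2, and neither Ybx1 nor Ybx2 had a site in both replicates (0 each). When log2(fold change) needed only to reach 1, Ybx1 had 4 in replicate 1, Ybx2 had 13 and 8 and Ybx3 had 6 and 11. Under that threshold, in a comparison added after seeing the data, sites shared by both replicates numbered 1 in Ybx1, 4 in Ybx2 and 1 in Ybx3. In another added comparison, that threshold also called 8 clusters of the 3 genes outside 3′UTRs in replicate 1 and 2 in replicate 2, where the main thresholds called 0. In CDS these were 6 of 74 clusters in replicate 1 (8.11%), beside 9.78% of all CDS clusters. In replicate 2 they were 2 of 68 (2.94%), beside 16.1%, so both CDS shares stood below the background. The rest were 2 of 9 intron clusters in replicate 1, for which no background share was computed. With at least 10 recovered IP reads, Ybx2 had 1 in replicate 2, since the cluster listed at 400 has no recovered reads. Leaving out replicate 1 or 2, the other alone gave 1 to 2 sites for Ybx1, 1 in either case for Ybx2 and 0 to 1 for Ybx3; the site of Ybx3 thus rests on replicate 2. Benjamini-Hochberg adjusted P values below 0.05 with the fold change threshold kept, 1 base inside the gene and the nearest transcription start site left the 6 counts of significant clusters within 1.5 times. So did 50% reciprocal overlap for the sites, both other ways of assigning regions for the 3′UTR counts, and windows of 50 and 200 bases for the motifs.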
